A study of Mus musculus with 16 samples.

Results

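The genes described here make prostaglandins or receive their signal. They were the 10 of 23356 rows of the expression table whose gene symbol was Ptgs1, Ptgs2, Ptges, Ptges2, Ptges3, Pla2g4a, Hpgd, Hpgds, Ptger2 or Ptger4, a choice by symbol that was made with earlier results of these data known. RNA-seq had been performed on mouse bone marrow-derived dendritic cells (BMDCs), cultured in medium with IL-4 and GM-CSF. The cells were wild-type C57BL/6 or came from knockout mice on that background, lacking Tmem173 (the gene of STING), Irf1, or both Irf3 and Irf7. BMDCs of each genotype were left untreated or were given c-di-GMP, a bacterial cyclic dinucleotide that STING binds, at 25 µg/ml for 18 h, which made 8 conditions of 2 samples each. The dose is that of the sample labels, and the study's own text also names a higher one for this experiment. The sources used here describe no sorting of the cultures before RNA extraction.

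Prostaglandins are lipid signals made from arachidonic acid. Cytosolic phospholipase A2 (Pla2g4a) frees arachidonic acid from membranes, a cyclooxygenase (the constitutive Ptgs1 or the inducible Ptgs2) turns it into prostaglandin H2, and terminal synthases turn that into each active lipid, among them prostaglandin E2 made by Ptges, Ptges2 or Ptges3. In dendritic cells prostaglandin E2 is known to act through its receptors EP2 (Ptger2) and EP4 (Ptger4) on migration, maturation and cytokine output.

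The table holds 1 value in FPKM (fragments per kilobase of transcript and sequencing depth, a level corrected for gene length and library size) per gene and condition, with an interval estimated by the authors' software. Both samples of a condition were combined before deposition, so that no spread between cultures can be given and no p-value was computed; the numbers in brackets after a level are the bounds of that interval. A gene entered a comparison, and is said to be tested, if either condition reached 1 FPKM, and it was called changed when its log2(FPKM + 0.1) differed by more than 1 and the intervals did not overlap. On this scale the changes of genes near or below 0.1 FPKM are understated. Among genes with at least 10 FPKM the interval reached a median of 25.2% to 25.7% of the level to either side, and the number of genes with at least 1 FPKM ranged from 10733 to 10970 per condition. Tmem173 was at 8.97 and 7.49 FPKM in Tmem173-/- BMDCs against 103 and 118 in wild-type BMDCs (untreated and treated), and Irf1 was at 25.9 and 116 FPKM in Irf1-/- BMDCs against 149 and 245. The Irf1 interval of treated Irf1-/- BMDCs (82.8 to 149) overlapped with that of untreated wild-type BMDCs (113 to 185). In Tmem173-/- BMDCs Irf1 was at 24.1 and 23.3 FPKM. Irf7 was at 1.07 and 4.97 FPKM in Irf3/7-/- BMDCs against 15.2 and 687, whereas Irf3 was at 7.74 FPKM in the untreated but at 20.2 FPKM in the treated condition labelled Irf3/7-/-, against 19.9 and 15.8 in wild-type BMDCs. The Irf3 level thus goes against the label of the treated condition and the Irf7 level follows it. Directions drawn from the condition labelled Irf3/7-/- CDG rest on that label. Irf1 was lower in Irf1-/- than in wild-type BMDCs of the same treatment, but it was higher with c-di-GMP than without. Directions drawn from the condition labelled Irf1-/- CDG rest on its label as well.

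Conditions also stood apart in markers of other cell types. The 10 dendritic cell markers summed to between 4627 and 7538 FPKM, with Cd74 (the invariant chain of MHC class II) the most abundant and Itgax (CD11c) at 135 to 369 FPKM, whereas Cd209a, a marker of monocyte-derived dendritic cells, was at 0 to 3.10 FPKM. The 8 T and NK cell markers summed to 63.3 and 44.7 FPKM in untreated and treated wild-type BMDCs, 88.1 and 158 in Irf3/7-/-, 4.66 and 3.69 in Irf1-/-, and 1.04 and 0.920 in Tmem173-/- BMDCs. The 7 neutrophil markers summed to 14517 to 19987 FPKM in Tmem173-/- BMDCs and to 1410 to 4086 FPKM in the other genotypes, and the 8 macrophage markers to 500 to 517 FPKM against 172 to 278. The 8 basophil and mast cell markers summed to between 63.3 and 279 FPKM and the 5 B cell markers to between 3.34 and 10.7 FPKM. In bulk RNA, fewer cells of a type and less RNA per cell cannot be told apart.

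In wild-type BMDCs, c-di-GMP moved the transcripts of this pathway in both directions. Those of the inducible cyclooxygenase Ptgs2, the inducible prostaglandin E synthase Ptges, the phospholipase Pla2g4a and the receptor Ptger2 rose, and that of the constitutive cyclooxygenase Ptgs1 fell. Of the 10 members, 8 were tested and 5 were called, where 20.5% of all 11201 genes tested were called. The median log2 change over the 8 members was 0.90, against 0.00 over all genes tested. The largest change was that of Ptgs2, which ranked 31st from the highest of all genes tested, and Ptges ranked 53rd. Ptgs1 ranked 101st from the lowest. Ptges passed the 1 FPKM minimum through its treated level only. The count and the median that include it are therefore no support for a change of the pathway.

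**Figure D1:**
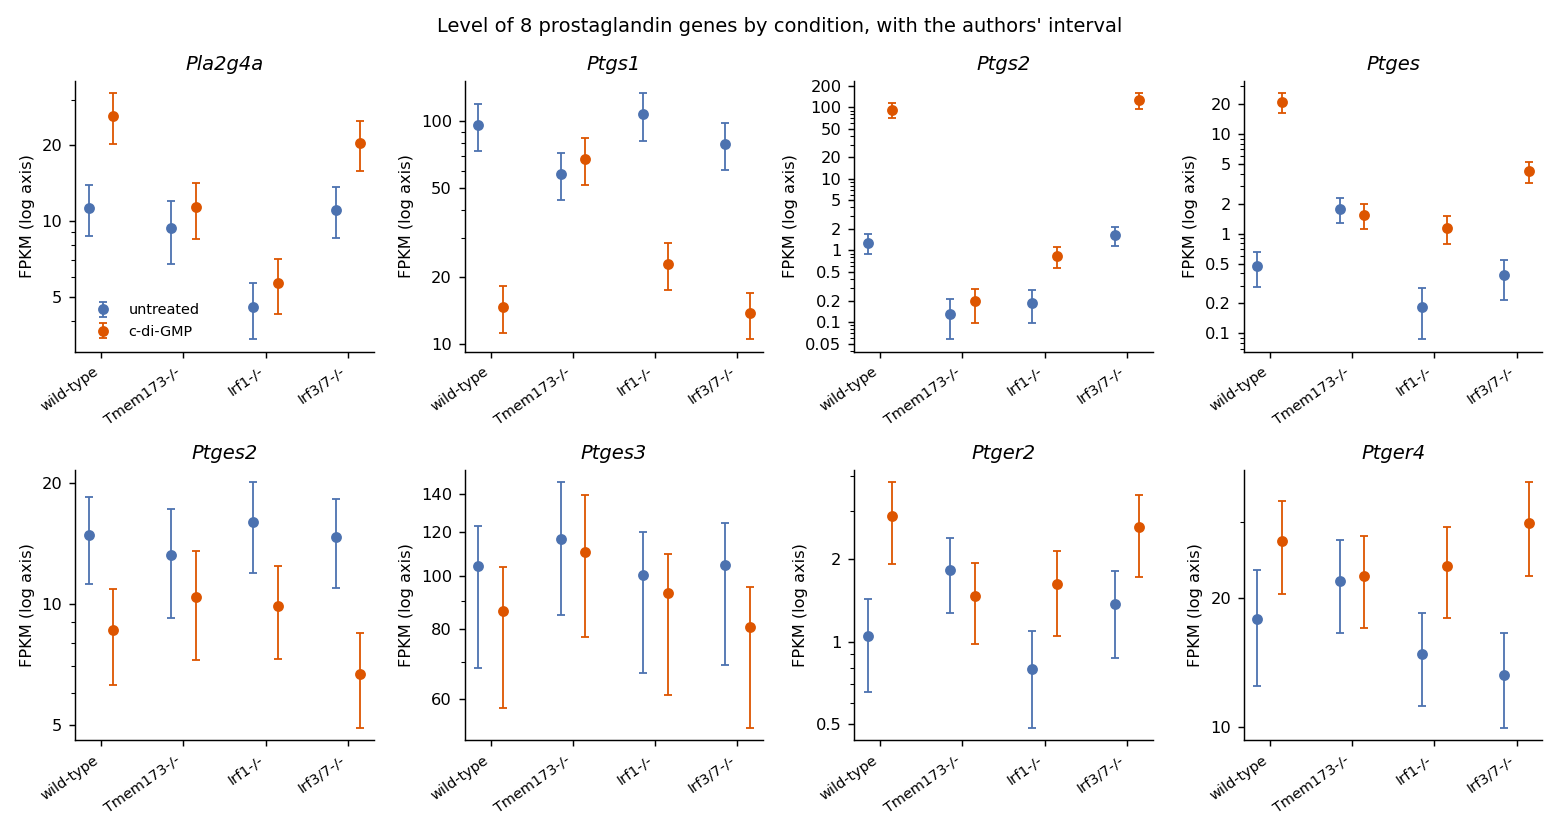
Level of 8 members in each condition, as FPKM on a log axis. Points are the pooled value of 2 samples and bars the authors' interval, blue untreated and orange c-di-GMP. Treated Ptgs2 stood at 92.1 FPKM in wild-type and 125 in Irf3/7-/- BMDCs but at 0.843 in Irf1-/- and 0.195 in Tmem173-/- BMDCs.

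Pla2g4a (chr1:149829622-149961284, minus strand, GRCm38 as for all loci here), which releases the arachidonic acid that cyclooxygenases use, was at 11.3 FPKM (8.70 to 13.9) in untreated and 26.1 FPKM (20.2 to 32.0) in treated wild-type BMDCs. It was at 11.1 and 20.3 FPKM in Irf3/7-/-, 9.34 and 11.3 FPKM in Tmem173-/-, and 4.54 and 5.67 FPKM in Irf1-/- BMDCs, untreated and treated. Irf1-/- BMDCs held the lowest values of the 8 conditions with either treatment. The rise in wild-type BMDCs was 1.20 on the log2 scale. Among neighbours in the order of the 8 levels, only treated Irf3/7-/- and treated Tmem173-/- BMDCs did not overlap in their intervals. The change in Irf3/7-/- BMDCs was 0.87 with intervals that did not overlap, under the 2-fold threshold, and those in Irf1-/- and Tmem173-/- BMDCs were 0.31 and 0.27 with intervals that overlapped.

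Ptgs2 (chr1:150100124-150108012, plus strand) encodes the cyclooxygenase that many inflammatory stimuli induce. It was at 1.28 FPKM (0.883 to 1.68) in untreated and 92.1 FPKM (69.7 to 114) in treated wild-type BMDCs. In Irf3/7-/- BMDCs it was at 1.62 FPKM (1.14 to 2.10) and 125 FPKM (93.4 to 156), and the levels of each treatment overlapped between these 2 genotypes. In Irf1-/- BMDCs it was at 0.187 FPKM (0.0959 to 0.278) untreated and 0.843 FPKM (0.566 to 1.12) treated. In Tmem173-/- BMDCs it was at 0.130 FPKM (0.0576 to 0.211) and 0.195 FPKM (0.0959 to 0.288). Treated wild-type and Irf3/7-/- BMDCs were thus high, and the other 6 conditions were at 1.62 FPKM or below. The log2 change with c-di-GMP was 6.06 in wild-type and 6.18 in Irf3/7-/- BMDCs. It was 1.72 in Irf1-/- BMDCs, where the intervals did not overlap but the gene stayed under 1 FPKM and was not tested, and 0.36 in Tmem173-/- BMDCs with overlapping intervals. The genotypes with high Ptgs2 were also those with high T and NK cell markers, and Cd3e, a subunit of the T cell receptor complex, was at 9.18 and 5.41 FPKM in wild-type, 14.3 and 23.3 in Irf3/7-/-, 0.641 and 0.479 in Irf1-/-, and 0.0701 and 0.0103 FPKM in Tmem173-/- BMDCs. With c-di-GMP the marker sum went from 63.3 to 44.7 FPKM in wild-type BMDCs and from 88.1 to 158 FPKM in Irf3/7-/- BMDCs, while Ptgs2 was higher in the treated condition of both. Not every marker of this list followed the sum. Klrb1c went from 4.05 to 0.618 FPKM with c-di-GMP in Irf3/7-/- BMDCs. Cd4, low in all conditions, was at 0.154 and 0.143 FPKM in Irf1-/- against 0.0791 and 0.0863 FPKM in wild-type BMDCs. The part of T and NK cells in the Ptgs2 levels was not tested.

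**Figure D2:**
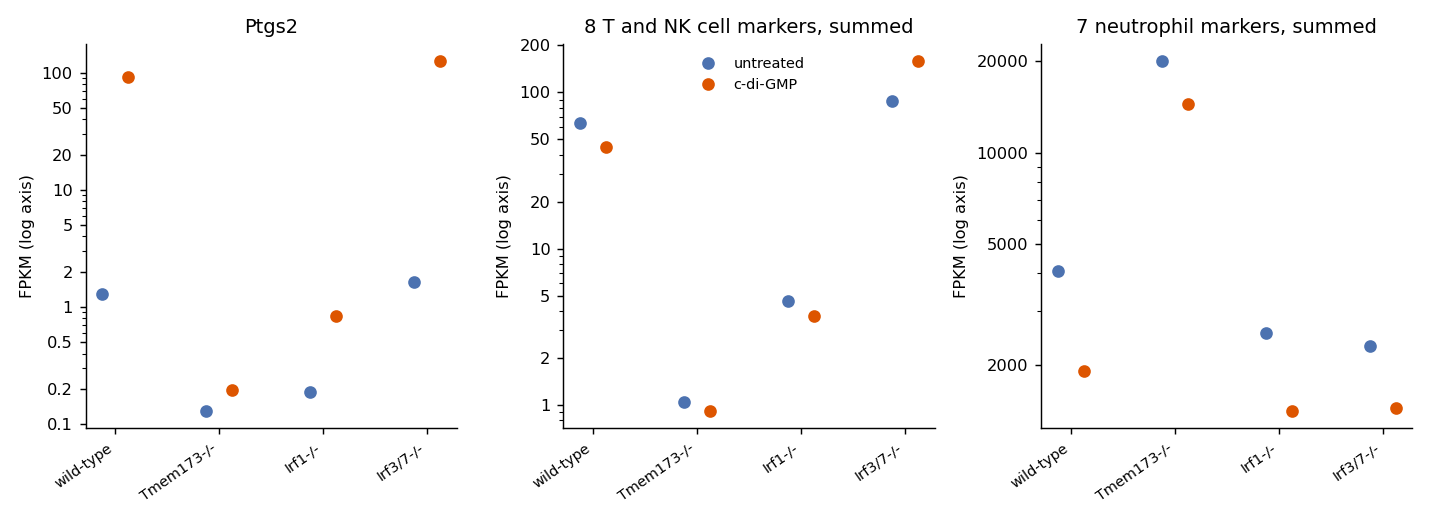
Ptgs2 and the summed level of 8 T and NK cell markers and of 7 neutrophil markers in each condition, as FPKM on log axes. Each point is the pooled value of 2 samples, blue untreated and orange c-di-GMP; the T and NK cell sum was highest at 158 FPKM in treated Irf3/7-/- BMDCs and lowest at 0.920 FPKM in treated Tmem173-/- BMDCs.

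Ptgs1 (chr2:36230426-36252269, plus strand), the cyclooxygenase that most cells express without a stimulus, went the other way. It was at 96.4 FPKM (73.3 to 120) in untreated and 14.6 FPKM (11.2 to 18.1) in treated wild-type BMDCs, a fall by 2.71 on the log2 scale. It fell by 2.23 in Irf1-/- BMDCs, from 108 FPKM to 22.9, and fell by 2.52 in Irf3/7-/- BMDCs, from 79.2 FPKM to 13.7. In Tmem173-/- BMDCs it was at 58.1 FPKM (44.4 to 71.8) untreated and 67.8 FPKM (51.7 to 83.9) treated, with overlapping intervals. The 8 levels formed 2 sets, the 3 treated conditions with STING at 13.7 to 22.9 FPKM and the other 5 at 58.1 to 108 FPKM. Within each set the neighbours overlapped, but not all conditions did. The intervals of treated Irf1-/- and treated Irf3/7-/- BMDCs did not overlap, nor did those of untreated Tmem173-/- and untreated wild-type BMDCs. Ptgs1 overlaps an unclassified annotated transcript on the opposite strand that is not in the table, and although the libraries were stranded, the strand setting of the Cuffdiff run is not stated.

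Ptgs1 and Ptgs2 thus exchanged places in treated wild-type BMDCs. Ptgs2 made up 1.31% of their summed level before and 86.3% after c-di-GMP, while the sum was 97.7 FPKM and 107 FPKM with overlapping intervals. In Irf3/7-/- BMDCs the share went from 2.01% to 90.1% and the sum from 80.8 FPKM to 139. In Irf1-/- BMDCs the share was 0.173% and 3.55%, and the sum was 108 FPKM untreated and 23.7 FPKM treated, the lowest of the 8 conditions. Tmem173-/- BMDCs kept a share of 0.223% and 0.287% and a sum of 58.2 and 68.0 FPKM. Treated Irf1-/- BMDCs had therefore the lower Ptgs1 of the other responding genotypes without their Ptgs2, and their summed cyclooxygenase level did not overlap with that of any other condition.

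**Figure D3:**
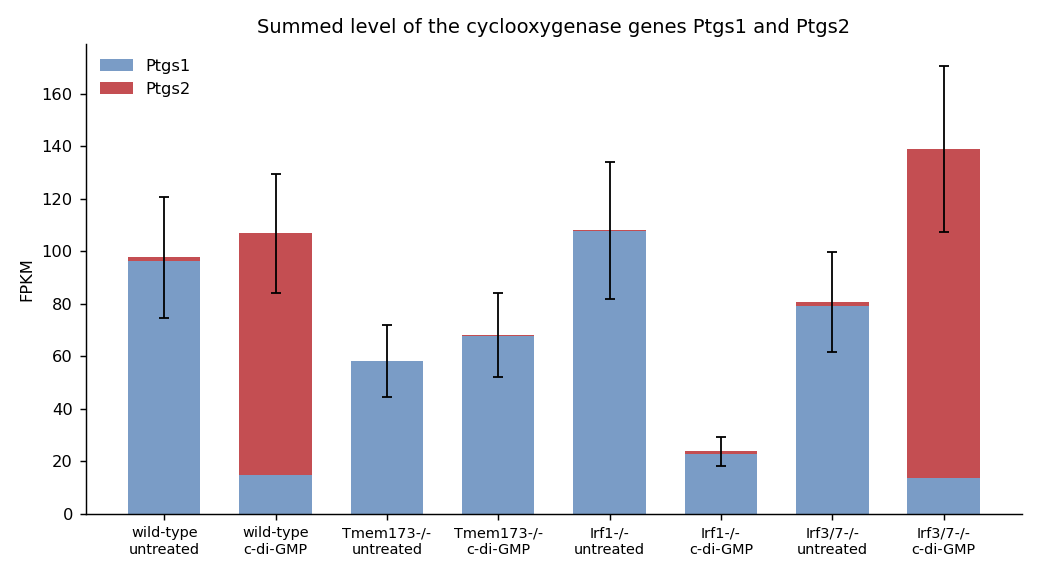
Summed level of the cyclooxygenase genes in each condition, in FPKM from 0, blue Ptgs1 and red Ptgs2. Error bars are the half-widths of both genes' intervals added in quadrature; the sum was 107 FPKM in treated wild-type and 23.7 FPKM in treated Irf1-/- BMDCs.

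Of the 3 prostaglandin E synthases, only the inducible microsomal enzyme Ptges rose in wild-type BMDCs. Ptges (chr2:30889471-30903297, minus strand) was at 0.470 FPKM (0.294 to 0.654) untreated and 20.8 FPKM (16.1 to 25.5) treated, a log2 change of 5.20. It was at 0.386 and 4.25 FPKM in Irf3/7-/- BMDCs, 0.185 and 1.15 FPKM in Irf1-/- BMDCs, and 1.77 and 1.54 FPKM in Tmem173-/- BMDCs. Treated wild-type BMDCs stood above all others, treated Irf3/7-/- BMDCs above the remaining 6, and the interval of treated Irf1-/- BMDCs overlapped with those of both Tmem173-/- conditions. The log2 change was 3.16 in BMDCs labelled Irf3/7-/-, 2.14 in Irf1-/- BMDCs and -0.19 in Tmem173-/- BMDCs. Untreated Ptges was highest in Tmem173-/- BMDCs, where the summed neutrophil and macrophage markers were highest too. Among those markers, untreated Cxcr2 was lowest there, at 15.4 FPKM, and Mertk was at 2.83 against 4.89 FPKM in wild-type BMDCs. The part of neutrophils and macrophages in the Ptges level was not tested.

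Ptges2 (chr2:32395890-32402740, plus strand), the membrane-associated synthase, was at 14.9 and 8.63 FPKM in untreated and treated wild-type BMDCs, 14.7 and 6.70 in Irf3/7-/-, 16.1 and 9.89 in Irf1-/-, and 13.3 and 10.4 in Tmem173-/- BMDCs. It was lower in the treated condition of each genotype, with intervals that did not overlap in wild-type and Irf3/7-/- BMDCs, and it passed the 2-fold threshold in Irf3/7-/- BMDCs alone, where it fell by 1.12. Ptges3 (chr10:128058982-128077254, plus strand), the cytosolic synthase that is also the HSP90 co-chaperone p23, was the most abundant at 80.8 to 116 FPKM. Its intervals overlapped in every comparison. Because Ptges3 dominated, the sum of the 3 synthases varied only from 91.7 to 131 FPKM, within which the share of Ptges went from 0.394% to 18.0% in wild-type BMDCs.

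Hpgd (chr8:56294552-56321046, plus strand), the dehydrogenase that inactivates prostaglandins, did not exceed 0.0772 FPKM in any condition, and it was listed at 0 in treated wild-type and treated Irf3/7-/- BMDCs. Hpgds (chr6:65117293-65144730, minus strand), the hematopoietic prostaglandin D synthase, was at 0.0942 to 0.397 FPKM. Neither gene reached 1 FPKM, and neither was tested.

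The 2 receptors for prostaglandin E2 were expressed at unequal levels. Ptger4 (chr15:5233404-5243831, minus strand) was at 17.8 and 27.1 FPKM in untreated and treated wild-type BMDCs, 13.2 and 29.8 in Irf3/7-/-, 14.8 and 23.6 in Irf1-/-, and 21.9 and 22.4 in Tmem173-/- BMDCs. It was called only in the response of Irf3/7-/- BMDCs, at 1.17 on the log2 scale, and that difference from the wild-type change of 0.60 had a range from -0.20 to 1.33. Ptger2 (chr14:44988111-45003820, plus strand) was at 1.05 FPKM (0.654 to 1.44) in untreated and 2.87 FPKM (1.91 to 3.81) in treated wild-type BMDCs, a log2 change of 1.37, which was 0.91 and not called with a pseudocount of 1 FPKM. It was at 1.37 and 2.62 FPKM in Irf3/7-/-, 0.796 and 1.63 in Irf1-/-, and 1.83 and 1.47 FPKM in Tmem173-/- BMDCs. The intervals of neighbours in the order of the 8 levels overlapped for either receptor. Ptger2 also overlaps 2 annotated transcripts on the opposite strand that are not in the table.

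**Figure D4:**
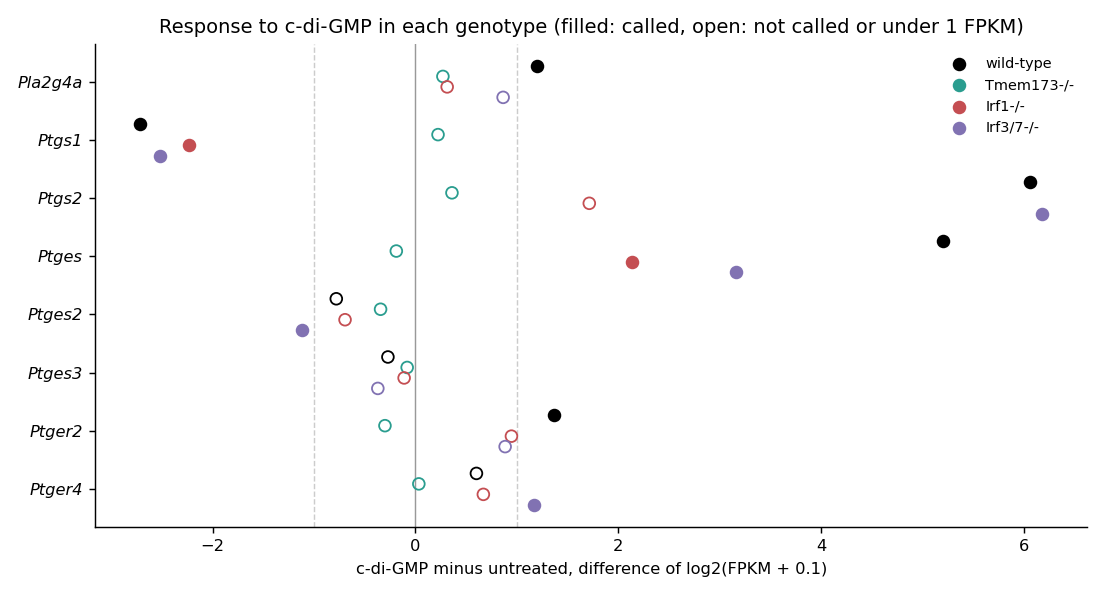
Change with c-di-GMP in each genotype for 8 members, as the difference of log2(FPKM + 0.1). Filled points were called, open points were not called or stayed under 1 FPKM, and dashed lines mark the 2-fold threshold; Ptgs2 was at 6.06 in wild-type and 6.18 in Irf3/7-/- BMDCs but at 1.72 in Irf1-/- and 0.36 in Tmem173-/- BMDCs.

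In the absence of STING no member was called. In Tmem173-/- BMDCs 0 of 7 members tested were called with c-di-GMP, where 0.0552% of all 10867 genes tested were called, and no member passed when the fold change alone was asked for. In Irf1-/- BMDCs 2 of 7 members were called against 17.5% of all genes tested, with Ptges higher and Ptgs1 lower. The call of Ptges was lost with a pseudocount of 1 FPKM, where its change was 0.86. In Irf3/7-/- BMDCs 5 of 8 members were called against 17.9% of all genes tested, with Ptgs2, Ptges and Ptger4 higher and Ptgs1 and Ptges2 lower. For Irf1-/- and Irf3/7-/- BMDCs Ptges passed the 1 FPKM minimum through its treated level only. The counts that include it are no support for a change of the pathway.

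The levels in the treated knockouts were then compared with those in treated wild-type BMDCs. The 3 comparisons share the treated wild-type value, and Ptgs2 passed the 1 FPKM minimum through that value alone in Tmem173-/- and Irf1-/- BMDCs. The counts for these 2 knockouts are therefore no support for a difference in the pathway. In Tmem173-/- BMDCs 4 of 8 members were called against 26.3% of all 11318 genes tested: Ptgs2 was lower by 8.29, Ptges by 3.68 and Pla2g4a by 1.20 on the log2 scale, and Ptgs1 was higher by 2.20. In Irf1-/- BMDCs 3 of 8 members were called against 7.56% of all 11079 genes tested, and all 3 were lower, as were 4.91% of all genes. Ptgs2 was lower by 6.61 and ranked 14th from the lowest of all genes tested, Ptges was lower by 4.06 and ranked 44th, and Pla2g4a was lower by 2.18 and ranked 169th. Ptgs1 was higher by 0.64 with overlapping intervals. In Irf3/7-/- BMDCs 1 of 8 members was called against 7.3% of all 11209 genes tested (2.69% lower), namely Ptges, which was lower by 2.27 and ranked 81st. Ptgs2 was higher by 0.44 and Pla2g4a lower by 0.36 in this condition, whose Irf3 level overlapped with that of wild-type BMDCs, both with overlapping intervals. Set against each other, treated Irf1-/- BMDCs held less of 3 members than treated Irf3/7-/- BMDCs, where 9.84% of all genes tested were called and 6.62% were called lower. Their log2 difference was -7.05 for Ptgs2, the 11th from the lowest of 11235 genes tested, -1.82 for Pla2g4a and -1.79 for Ptges. Ptgs2 passed the minimum through its Irf3/7-/- level alone here, so that this count is no such support either.

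The untreated knockouts were compared with untreated wild-type BMDCs in the same way. Ptgs2 passed the 1 FPKM minimum through its wild-type level alone in Tmem173-/- and Irf1-/- BMDCs, and Ptges through its Tmem173-/- level alone, so that the counts that include them are no support for a difference in the pathway. In untreated Tmem173-/- BMDCs 2 of 8 members were called against wild-type BMDCs, where 11% of all genes tested were called: Ptgs2 was lower by 2.59 and Ptges higher by 1.71 on the log2 scale. Ptgs1 was lower by 0.73, under the threshold, with intervals that did not overlap. In untreated Irf1-/- BMDCs 2 of 7 members were called against 4.78% of all genes tested (3.52% lower), Ptgs2 lower by 2.27 and Pla2g4a lower by 1.30. With a pseudocount of 1 FPKM the call of Ptges in untreated Tmem173-/- BMDCs (0.91) and that of Ptgs2 in untreated Irf1-/- BMDCs (-0.94) were lost. In untreated Irf3/7-/- BMDCs 0 of 7 members were called against 2.04% of all genes tested, and 0 passed with the fold change alone.

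The responses themselves were compared by subtracting the log2 change of wild-type BMDCs from that of each knockout, with a range from the 4 intervals. These 3 comparisons share both wild-type values. Ptgs2 passed the 1 FPKM minimum through its wild-type levels alone for Tmem173-/- and Irf1-/- BMDCs. Ptges passed it through treated levels alone for Irf1-/- and Irf3/7-/- BMDCs. The counts that include them are no support for a difference in the pathway. For Tmem173-/- BMDCs 4 of 8 members were called against 21.5% of all genes tested, with a difference of 2.93 (2.24 to 3.63) for Ptgs1, -5.70 (-6.59 to -4.81) for Ptgs2, -5.39 (-6.18 to -4.59) for Ptges and -1.67 (-2.60 to -0.73) for Ptger2. For Irf1-/- BMDCs 2 of 8 members were called against 4.92% of all genes tested, Ptgs2 at -4.35 (-5.20 to -3.49) and Ptges at -3.06 (-3.94 to -2.18). The difference for Pla2g4a was -0.89 with a range from -1.58 to -0.20, which was under the threshold, and that for Ptgs1 was 0.48 with a range from -0.22 to 1.18. For Irf3/7-/- BMDCs 1 of 8 members was called against 6.23% of all genes tested, Ptges at -2.04 (-2.88 to -1.19). The difference for Ptgs2 there was 0.12 with a range from -0.66 to 0.91.

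Other genes of the pathway were read from a list of 35 phospholipases A2, terminal synthases, receptors, transporters and breakdown enzymes, of which 34 were in the table and 18 reached 1 FPKM in at least 1 condition. In the response of wild-type BMDCs 2 of 16 tested were called higher and 2 lower, where 20.5% of all genes tested were called, so that the count was near the background. Pla2g16, a phospholipase of adipocytes and other cells, went from 19.2 to 62.1 FPKM (log2 change 1.69). Pla2g4f, a cytosolic phospholipase A2 of the same group as Pla2g4a, went from 0.484 to 1.28 FPKM (1.24). Pla2g4f passed the 1 FPKM minimum through its treated level only, and the count that includes it is no support for a change of the pathway. Tbxas1, the thromboxane synthase, which also uses prostaglandin H2, fell by 2.06 on the log2 scale from 62.8 to 14.9 FPKM, and Pparg, a nuclear receptor that prostaglandin derivatives can bind, fell by 1.08 from 12.5 to 5.86 FPKM. The median of the list was 0.01 against 0.00 over all genes tested.

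In treated Tmem173-/- against treated wild-type BMDCs 6 of 17 listed genes were called higher and 2 lower, where 26.3% of all genes tested were called. Tbxas1 was higher by 2.90 on the log2 scale, at 112 FPKM, and the other higher genes were Akr1c18, a hydroxysteroid and prostaglandin F reductase (2.67), Fam213b, a prostamide and prostaglandin F synthase (1.74), Pparg (1.46), Ptgr1, a reductase that inactivates prostaglandins (1.26) and the carbonyl reductase Cbr3 (1.10). Pla2g16 was lower by 4.84, at 2.08 FPKM, and Pla2g4f lower by 2.40. Akr1c18 and Fam213b passed the 1 FPKM minimum through their Tmem173-/- level alone, and Pla2g4f through its wild-type level alone. The count that includes them is therefore no support for a difference in the pathway. The summed neutrophil and macrophage markers were higher in these BMDCs as well. Of the single markers, Mertk (3.74 against 16.9 FPKM) and Fcgr1 (29.3 against 40.6 FPKM) were lower than in treated wild-type BMDCs. The part of neutrophils and macrophages in the higher genes was not tested. In treated Irf1-/- BMDCs, where 7.56% of all genes tested were called, 1 of 16 listed genes was higher, Cbr3 at 1.25, and 1 lower, Pla2g16, which was at 10.0 FPKM and lower by 2.62. In treated Irf3/7-/- BMDCs, where 7.3% of all genes tested were called, 2 of 17 were higher, Ptgr1 at 1.75 and Cbr3 at 1.13. Pla2g4f was lower by 1.65, while Pla2g16 was at 48.0 FPKM and not called. Pla2g4f passed the minimum through its wild-type level alone here, so that this count is no such support either. In the order Tmem173-/-, Irf1-/-, Irf3/7-/- the list's median was 0.69, 0.14 and -0.08, against 0.02, 0.02 and -0.02 over all genes tested. These medians include genes that passed the minimum through the higher level alone, and they are no support for a difference in the pathway. Several of these differences from wild-type BMDCs were also called without treatment. Untreated Pla2g16 was lower by 2.77 in Tmem173-/- and 2.14 in Irf1-/- BMDCs, and its called rise in Irf1-/- BMDCs was 1.21. In untreated Tmem173-/- BMDCs Akr1c18 was higher by 2.36, Ptgr1 by 1.75, Cbr3 by 1.42 and Tbxas1 by 1.01. Pparg and Fam213b were not called there, nor Cbr3 in the other untreated knockouts, nor Ptgr1 in untreated Irf3/7-/- BMDCs.

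**Figure D5:**
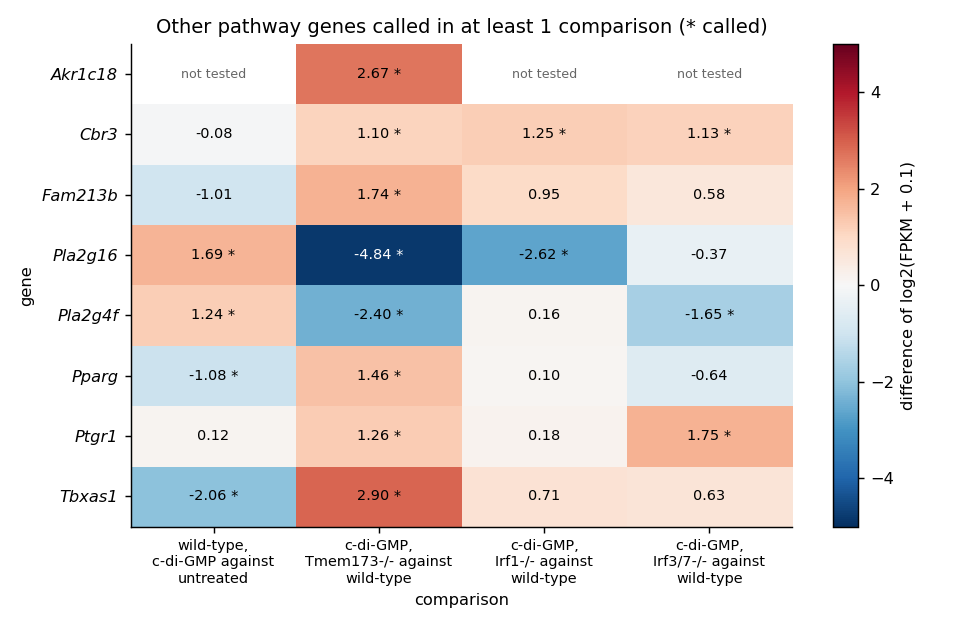
Genes of the wider pathway called in at least 1 of 4 comparisons, as differences of log2(FPKM + 0.1), red higher and blue lower, with a star where called. Pla2g16 was at 1.69 in the wild-type response, -4.84 in treated Tmem173-/-, -2.62 in treated Irf1-/- and -0.37 in treated Irf3/7-/- against treated wild-type BMDCs.

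The genes whose pattern over the 8 conditions lay nearest to each changing member were found among 7382 genes, by the root mean square difference of log2 values centred on each gene's mean. The points share their libraries and no test was made. Nearest to Ptgs2 were Clic5 (0.86), Gm15056 (1.01) and Ctla4 (1.26), where the median over all genes was 3.42. Clic5 was at 15.6 FPKM in treated wild-type and 8.30 FPKM in treated Irf3/7-/- BMDCs and did not exceed 0.219 FPKM elsewhere. Nearest to Ptges were Clec4e (0.52), Mfsd7a (0.60) and Slc6a12 (0.83), and the median was 1.87. Nearest to Ptgs1 were Cluh (0.14), Dkc1 (0.26) and Srm (0.27), each lower in the 3 treated conditions with STING, and the median was 1.18. Nearest to Pla2g4a were Fyb (0.24), Upp1 (0.30) and Abr (0.32), with a median of 0.86, and nearest to Ptger2 were Znrf1 (0.15), Fam174a (0.17) and Wdr92 (0.17), with a median of 0.64.

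Pla2g4a and Ptgs2 lie near each other on chromosome 1, with 138839 bases and 1 other gene of the table between their loci. The 250 bases before the annotated start of each member (RefSeq, GRCm38.p6, all 10 members matched) were searched on both strands for 6 short motifs: GAAA, any 2 bases and GAAA for interferon regulatory factors, GGG, any 2 bases and TTTCC for NF-kB, TTGCNNAA for C/EBP, TGACGTCA for CREB and ATF, CACGTG for E-box factors and TATAAA for the TATA-binding protein. Ptgs2, Ptges, Pla2g4a and Ptgs1 are shown because their transcripts changed most between treated wild-type and knockout BMDCs or with c-di-GMP, as strands read 5′ to 3′ toward the start, with a motif match in capitals.
Ptgs2 promoter, chr1:150099781-150100030, plus strand: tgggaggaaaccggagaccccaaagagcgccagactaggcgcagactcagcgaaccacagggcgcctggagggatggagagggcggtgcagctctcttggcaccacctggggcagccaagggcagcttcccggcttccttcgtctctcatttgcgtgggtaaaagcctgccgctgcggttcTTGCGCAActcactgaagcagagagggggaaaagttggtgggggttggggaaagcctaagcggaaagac
Ptges promoter, chr2:30903298-30903547, minus strand: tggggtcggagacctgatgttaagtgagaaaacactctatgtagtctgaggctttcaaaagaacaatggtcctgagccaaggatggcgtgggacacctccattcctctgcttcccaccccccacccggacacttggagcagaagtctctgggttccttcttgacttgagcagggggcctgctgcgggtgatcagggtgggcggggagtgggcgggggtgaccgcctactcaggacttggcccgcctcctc
Pla2g4a promoter, chr1:149961291-149961540, minus strand: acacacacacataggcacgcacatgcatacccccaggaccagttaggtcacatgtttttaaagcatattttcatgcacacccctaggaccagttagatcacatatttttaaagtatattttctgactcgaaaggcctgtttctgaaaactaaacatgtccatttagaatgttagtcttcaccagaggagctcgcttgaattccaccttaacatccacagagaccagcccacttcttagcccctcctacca
Ptgs1 promoter, chr2:36230176-36230425, plus strand: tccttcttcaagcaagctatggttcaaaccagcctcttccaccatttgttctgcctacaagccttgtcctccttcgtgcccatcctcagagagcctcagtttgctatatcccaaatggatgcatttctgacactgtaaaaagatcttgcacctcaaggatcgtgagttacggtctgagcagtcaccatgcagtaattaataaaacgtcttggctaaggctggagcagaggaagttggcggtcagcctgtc
The Ptgs2 window holds 1 C/EBP match, TTGCGCAA, from 69 to 62 bases before the start, which reads the same on both strands. The annotated start of Ptgs2 lies 93 bases upstream of the edge of its locus in the expression table, and that of Ptger4 lies 356 bases upstream. The bases between start and locus edge were not searched, so that a motif there would be missed. A C/EBP match was in the windows of 2 members, Ptgs2 and Hpgds, and in 9.56% of all 32851 promoter windows. The windows of Ptges, Pla2g4a and Ptgs1 hold none of the 6 motifs. The interferon regulatory factor motif was in 0 of 10 members and in 2.98% of all windows, and the NF-kB motif in 0 of 10 and in 1.41%. The E-box motif was in 1 member, Ptges2, and in 6.02% of all windows, the TATA motif in 1 member, a second annotated promoter of Pla2g4a, and in 12.4%, and the CREB and ATF motif in 0 and in 1.55%. These letters mark matches in these windows and no bound site was measured.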

How the data were processed

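RNA-seq had been performed on 16 samples of BMDCs, 2 for each of 8 conditions. The deposited file is a gene tracking table in which the authors give 1 FPKM per gene and condition, made by Cuffdiff from both samples together, with the bounds of an interval and a status. The submitters' processing notes name Cuffdiff 1.06 and the build mm9, while 21454 of 21681 gene loci that could be compared overlapped their gene in GRCm38, whose coordinates are used here. Libraries were made with a stranded mRNA kit. The study's methods name a strand-specific setting for a separate quantification in SeqMonk, whereas the strand setting, aligner and annotation behind the Cuffdiff table were not stated in the sources used. Another 4 columns matched no sample label and were not used. The column of treated Tmem173-/- BMDCs was assigned by its name. Depth cannot be read from FPKM.

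Values were compared as log2(FPKM + 0.1) over the whole table, in 11 comparisons of conditions and 3 of responses. A gene was called when it differed by more than 2-fold, had at least 1 FPKM in one condition, had the status OK, and had intervals that did not overlap, or, for responses, a range that excluded 0. The alternatives were 7 other settings (pseudocounts of 1 and 0.01 FPKM, no minimum, a minimum of 5 FPKM, a 1.5-fold threshold, median centring, and the fold change alone). The genes named were the 10 members, pathway genes called in the wild-type response or in a treated knockout, the targeted genes, marker genes that lead a list or stand beside a result, and the 3 genes nearest in pattern to each changing member, among genes with at least 10 FPKM in one condition. The members and lists were chosen with earlier results of these data known. Python 3.11.15, numpy 2.4.6, pandas 2.3.3 and matplotlib 3.10.9 were used.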

Additional observations from a re-analysis of the deposited data

Results flagged for a closer look

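The response to c-di-GMP differed between a knockout and wild-type BMDCs, by the range of the difference itself, for 7 combinations of gene and knockout. Of all genes tested, 21.5% were called in this way for Tmem173-/-, 4.92% for Irf1-/- and 6.23% for Irf3/7-/- BMDCs. In Tmem173-/- BMDCs the log2 change minus that of wild-type BMDCs was 2.93 for Ptgs1, -5.70 for Ptgs2, -5.39 for Ptges and -1.67 for Ptger2. In Irf1-/- BMDCs it was -4.35 for Ptgs2 and -3.06 for Ptges. In Irf3/7-/- BMDCs it was -2.04 for Ptges. Of these genes, Ptges is the only one with a called difference in all 3 knockouts, and the 3 comparisons share both wild-type values. Ptgs2 passed the 1 FPKM minimum through its wild-type levels alone for Tmem173-/- and Irf1-/- BMDCs. Ptges passed it through treated levels alone for Irf1-/- and Irf3/7-/- BMDCs. The count that includes them is no support for a difference in the pathway. The ranges rest on the authors' intervals and not on replicates.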

How the results depend on the processing

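Of the counts of members called in the 14 comparisons, 92 of 98 values under the 7 alternatives stayed within 1.5 times the value reported. The number of members called in the response of Irf1-/- BMDCs was 1 in place of 2 when the pseudocount was 1 FPKM, and likewise when the minimum was 5 FPKM. In untreated Tmem173-/- against wild-type BMDCs it was 1 in place of 2 at the pseudocount of 1 FPKM and 0 at the minimum of 5 FPKM, and in untreated Irf1-/- against wild-type BMDCs it was 1 in place of 2 under both. These concern Ptges and Ptgs2 at levels near 1 FPKM. For single members 12 values lost their call and 8 gained one, and 0 reversed. Ptgs2 in the response of Irf1-/- BMDCs was called with no minimum FPKM, at 1.72, and Pla2g4a passed at a 1.5-fold threshold in the response difference of Irf1-/- BMDCs, at -0.89. The rise of Ptger2 in wild-type BMDCs fell under the threshold with a pseudocount of 1 FPKM, at 0.91. No paired analysis was possible because the table holds 1 value per condition and its columns carry no replicate numbers, and for the same reason no sample could be left out in turn. The intervals cannot be checked against the spread between cultures.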
